A study of Mus musculus with 16 samples.

Results

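The genes of the proteasome were examined across 4 groups of CD8+ T cells. Members were the protein-coding genes of the count table whose symbol begins with Psma, Psmb, Psmc, Psmd, Psme, Psmf or Psmg followed by a digit, which gave 50 genes of 54532 listed, 22046 of them protein coding. A further 4 rows with such symbols carried another biotype and were not members. By role, the members were 7 genes of the 20S alpha ring, 10 of the 20S beta ring (4 structural, 3 constitutive catalytic and 3 immunoproteasome catalytic), 6 ATPases and 11 non-ATPase subunits of the 19S particle, 3 chaperones of 19S assembly, 4 chaperones of 20S assembly, 4 PA28 genes, the PA200 gene Psme4, the PI31 gene Psmf1, 2 tissue-restricted 20S genes (Psma8 and Psmb11) and Psmc3ip. The symbol rule also takes in Psmc3ip, which encodes a meiotic recombination protein and no subunit of the proteasome.

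Naive CD8+ T cells from spleens of C57BL/6J mice had been activated repeatedly in culture for 4 days with anti-CD3/CD28 beads and low-dose IL-2, which gave TCF1+CD8+ T cells. These cells were kept with or without PGE2 (prostaglandin E2, a lipid mediator that acts on T cells through cAMP-coupled receptors) at 100 ng/ml for 1 h, and then for 4 h either received IL-2 at 85 U/ml alone or IL-2 together with anti-CD3/CD28 beads at 1 bead per cell. The resulting groups are called unstimulated control, unstimulated PGE2, stimulated control and stimulated PGE2, with 4 replicates each. All of them shared the prior activation and the IL-2, the system was an in vitro one without tumour cells, and the labels do not say whether replicates were separate mice or cultures, so p-values measure the spread between these samples, which may be technical.

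The proteasome is the protease that degrades most ubiquitin-tagged proteins. Its 20S core is a barrel of outer alpha rings and inner beta rings, and the 19S particle on its ends binds ubiquitin, unfolds the substrate with its ATPase ring and feeds it into the core. In lymphocytes and under interferon the catalytic subunits Psmb5, Psmb6 and Psmb7 are replaced in newly built cores by Psmb8, Psmb9 and Psmb10, and this immunoproteasome, with the PA28 activator made of Psme1 and Psme2, is known for producing peptides for MHC class I. Subunit genes are known targets of Nfe2l1, which binds antioxidant response elements when proteasome activity is short.

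Upstream sequences are shown for members that represent the different patterns described below: Psmb5 and Psmb6 from the constitutive catalytic set, Psmb8 and Psmb9 from the immunoproteasome set, and Psme3, which had the largest fold change of all members on stimulation. Each is the 250 bases before the RefSeq start on GRCm38.p6, 5′ to 3′ on the gene's strand, and capitals mark matches on either strand to 1 of 5 motifs: the antioxidant response element core TGACNNNGC, the NF-Y box CCAAT, the interferon-stimulated response element core GAAANNGAA, the cAMP response element TGACGTCA and the E-box CACGTG. The regions are chr14:54617996-54618245 (minus strand) for Psmb5, chr11:70525107-70525356 (plus) for Psmb6, chr17:34197945-34198194 (plus) for Psmb8, chr17:34187331-34187580 (minus) for Psmb9 and chr11:101315963-101316212 (plus) for Psme3. The annotation deposited with the counts places the outer end of Psmb8 and Psmb9 further upstream, so their regions lie within those gene spans.
Psmb5: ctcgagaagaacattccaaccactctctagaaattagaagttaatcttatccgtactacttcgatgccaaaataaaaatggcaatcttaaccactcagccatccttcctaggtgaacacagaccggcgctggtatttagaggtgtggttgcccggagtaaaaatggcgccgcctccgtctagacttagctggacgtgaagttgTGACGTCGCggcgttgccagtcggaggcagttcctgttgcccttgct
Psmb6: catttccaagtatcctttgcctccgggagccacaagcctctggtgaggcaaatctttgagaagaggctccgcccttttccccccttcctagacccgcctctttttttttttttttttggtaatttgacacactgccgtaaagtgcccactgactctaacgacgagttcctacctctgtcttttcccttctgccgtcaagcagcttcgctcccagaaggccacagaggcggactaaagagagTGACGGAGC
Psmb8: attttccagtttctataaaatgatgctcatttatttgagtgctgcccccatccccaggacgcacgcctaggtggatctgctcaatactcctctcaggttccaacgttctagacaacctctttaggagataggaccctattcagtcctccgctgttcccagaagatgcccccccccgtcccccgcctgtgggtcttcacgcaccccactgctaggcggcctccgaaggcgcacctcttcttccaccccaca
Psmb9: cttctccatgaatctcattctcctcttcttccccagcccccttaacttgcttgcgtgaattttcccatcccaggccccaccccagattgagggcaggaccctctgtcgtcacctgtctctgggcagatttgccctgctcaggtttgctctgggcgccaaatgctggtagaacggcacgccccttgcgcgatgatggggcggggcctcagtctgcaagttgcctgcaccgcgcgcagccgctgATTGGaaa
Psme3: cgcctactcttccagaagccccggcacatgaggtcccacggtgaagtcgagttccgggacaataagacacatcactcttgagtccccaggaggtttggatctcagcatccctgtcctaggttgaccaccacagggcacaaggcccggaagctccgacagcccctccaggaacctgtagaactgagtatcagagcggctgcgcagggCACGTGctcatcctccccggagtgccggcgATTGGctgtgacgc

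The antioxidant response element core was found in Psmb5 at position -47 from the start, as TGACGTCGC, and in Psmb6 at -9, as TGACGGAGC. Psmb9 held an NF-Y box on the opposite strand at -8, and Psme3 held an E-box at -44 and an NF-Y box on the opposite strand at -14. The Psmb8 sequence held none of the 5 motifs. The start of Psmb9 lies 226 bases from that of Tap1, which encodes a subunit of the peptide transporter for MHC class I and runs on the opposite strand.

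RefSeq windows from 250 bases before to 50 after the start were found for 42 of the 50 members, 3 of them with 2 windows, and were set against the windows of all 27025 genes in the table. The antioxidant response element core occurred in 6 members, 14.3% of the 42, against 14% of all genes; besides Psmb5 and Psmb6 they were Psmc6, Psmd12, Psmd9 and Psme4. The interferon-stimulated response element core occurred in 7 members (16.7%) and in 9.76% of all genes, and none of the 7 was an immunoproteasome catalytic gene. NF-Y boxes occurred in 15 members (35.7%) against 41.1%, E-boxes in 4 members (9.52%) against 8.09%, and the cAMP response element in 0 members against 2.03%. A match of these letters is a description of the window, not a binding site.

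Of the 50 members, 48 were counted well enough to be tested in each comparison. Psma8, the testis form of an alpha subunit, had 0 to 3 counts in each sample, and Psmb11, the thymus form of the catalytic subunit beta5, had 0 to 4. Totals per sample ran from 22678254 to 42950763 counts, with a median of 30211840.5, of which the members took 0.547% to 0.873%. The 6 CD8+ T cell genes checked (Cd3e, Cd8a, Cd8b1, Tcf7, Lef1 and Cd44) were all expressed, summing to between 2346 and 3970 CPM (counts scaled to the library total after TMM scaling) in each sample. Summed marker genes of B cells reached at most 21.0 CPM, of myeloid cells 3.91 CPM and of erythroid cells 0.820 CPM. CD4+ T cell markers summed to 17.99 to 40.5 CPM. Group means were 14.99 to 27.29 CPM for Zbtb7b and 4.241 to 5.923 CPM for Foxp3. They were 0.3659 to 2.904 CPM for Cd40lg and at most 0.629 CPM for Cd4 itself. NK cell markers summed to 5.54 to 24.1 CPM in unstimulated and 36.5 to 178 CPM in stimulated samples, nearly all of it Eomes, a gene that CD8+ T cells express too, while the other 3 of the 4 genes were below 1 CPM in every group; their part in the results was not tested. In such bulk RNA, fewer cells expressing a gene and less of its RNA per cell cannot be told apart.

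On a per-length scale (FPKM), the members differed widely in level in the unstimulated control group. The PA28 gene Psme1 was highest with 150.1 FPKM ± 5.30 (SD, n = 4), followed by the immunoproteasome gene Psmb8 with 123 ± 1.72. The alpha subunit Psma6 had 107 FPKM ± 6.30, Psmb4 103 ± 4.93 and Psmb5 99.8 ± 7.29, and neighbours among these 3 differed by less than their SD. At the lower end stood the chaperones Psmg3 with 3.18 FPKM ± 0.323 and Psmd9 with 3.196 ± 0.183, which are not part of the finished particle. Other such chaperones were higher, with 51.8 FPKM ± 1.14 for Psmg4 and 34.1 ± 1.57 for Psmg2.

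Some of these levels are uncertain because members share sequence with other genes, and how the counting treated reads with several positions and their strand was not given in the sources used here. In 15 members more than 10% of the 31-base stretches of their transcripts also occurred in another gene. Psme2b had the highest share, 78.4%, nearly all of it with Psme2, and Psmb5 followed with 71.7%, most of it with Gm3375, a gene whose counts came to 3.42% of those of Psmb5. Psma5 shared 61.0%, mostly with Gm8394, and Psma3 shared 20.3%, with counts of its partner Gm13835 equal to 57.6% of its own. Exons of Psmb9 overlapped those of Tap1 on the other strand over 5.79% of their length, those of Psmb8 overlapped Gm20496 over 14.7%, and those of Psmb7 overlapped Nek6 over 11.8%. Counts of Nek6 ran from 241 to 3388 per sample and came to 43% of those of Psmb7. Fold changes and ratios of these members carry the same limit as their levels.

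The comparison of stimulated with unstimulated cells without PGE2 asked what 4 h of T cell receptor and CD28 stimulation did to the members. Most of them rose: 37 of 48 were higher and 3 were lower at an adjusted p below 0.05 (edgeR, adjusted over all genes), where 31.7% of all 14205 genes tested were higher and 34.8% lower. The median log2 fold change of the members was 0.47, against -0.03 over all genes. The groups did not overlap for 37 members in the upward direction, against 30.4% of all genes, and for 3 in the downward direction, against 31.2%. At least 2-fold and significant increases were seen in 5 members, against 11.5% of all genes.

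The increases spanned the whole particle. All 7 alpha ring genes rose, with a median log2 fold change of 0.55 and values from 0.19 in Psma1 to 0.70 in Psma7. Of the 6 ATPases 5 rose (median 0.41), led by Psmc5 with 0.78, while Psmc3 had 0.06 (adjusted p = 0.468). Of the 11 non-ATPase subunits 10 rose (median 0.48), and Psmd13 had 0.09 (adjusted p = 0.338). Of the 4 structural beta genes 3 rose (median 0.38), and Psmb1 had 0.07 (adjusted p = 0.418).

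**Figure D1:**
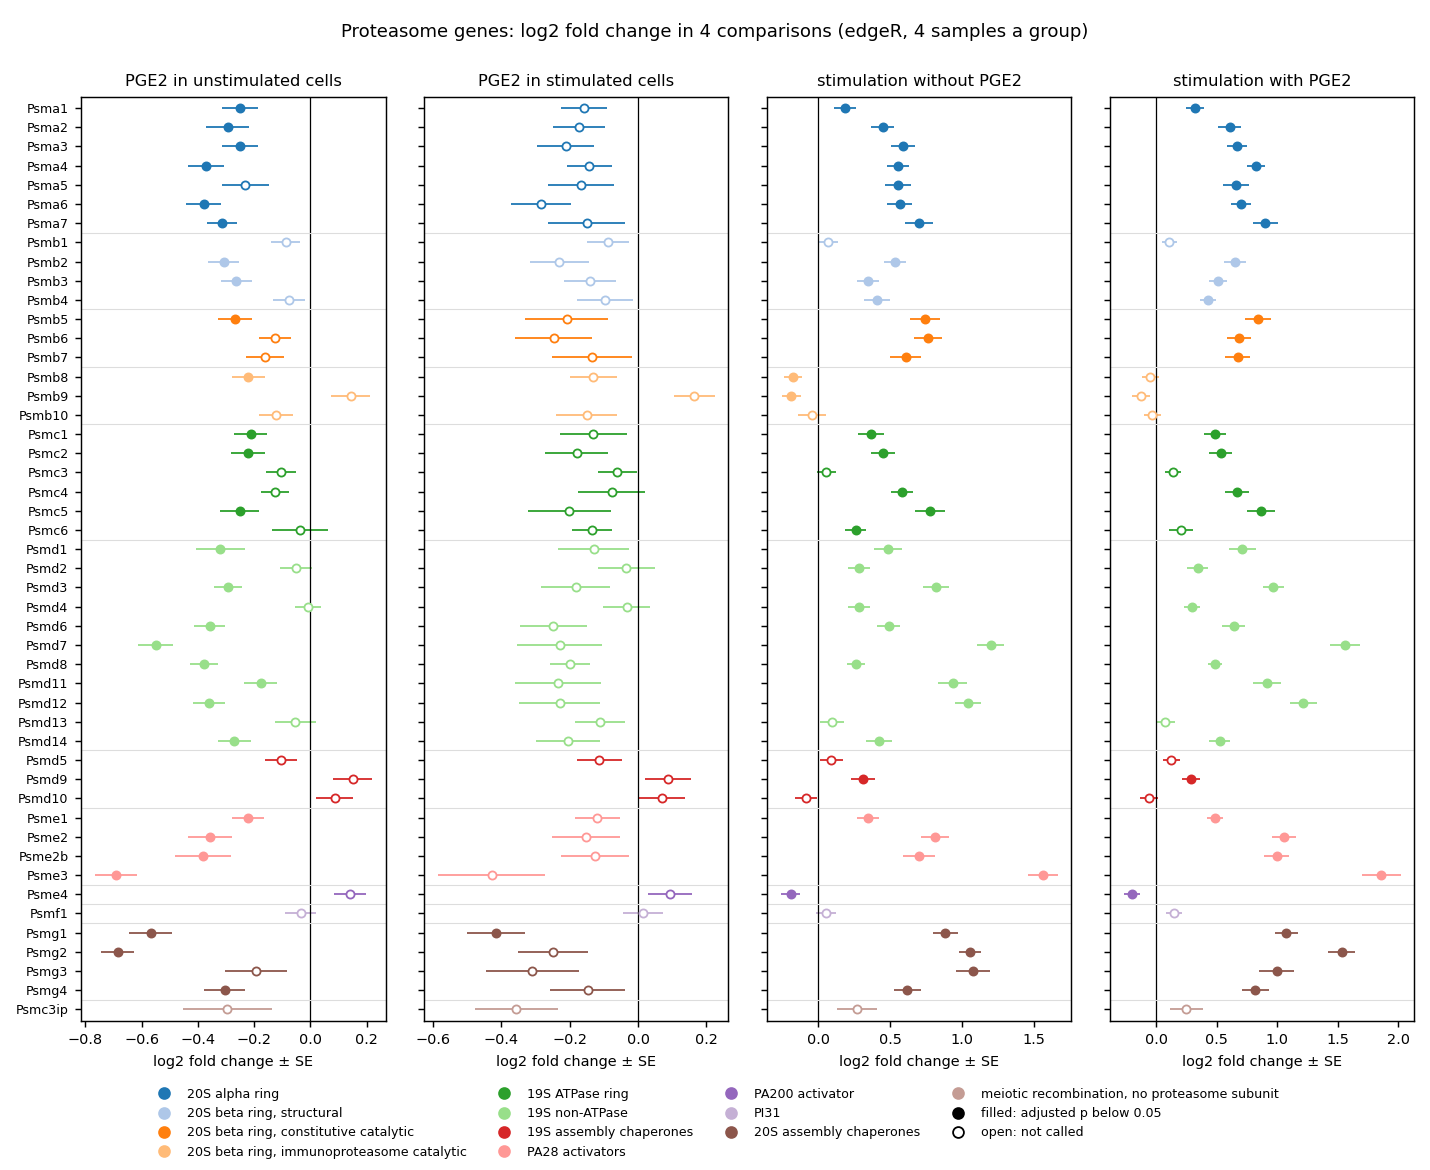
Log2 fold change ± SE of each of the 48 tested members, grouped by role, in the 4 pairwise comparisons (horizontal axes, log2 scale, with a range of its own in each panel; filled points passed the test at an adjusted p below 0.05). With stimulation most roles lie right of 0 while the immunoproteasome catalytic genes lie at or left of it, and with PGE2 most members lie left of 0.

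Psme3, which encodes the nuclear PA28 gamma activator, had the largest increase. It had 194, 188, 168 and 177 CPM in the unstimulated control samples and 623, 574, 494 and 462 CPM in the stimulated control samples. Every stimulated sample lay above every unstimulated one. The fold change was 2.94 (log2 1.56, SE 0.104, adjusted p = 8.3e-08).

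Psmd7, a 19S subunit that pairs with the deubiquitinase Psmd14, came next. Its levels were 103, 110.1, 103 and 116 CPM without stimulation and 289, 251, 236 and 224 CPM with it. The groups were well apart, with a fold change of 2.29 (log2 1.20, SE 0.0929, adjusted p = 2.4e-07). Psmd12, another 19S subunit, rose by 1.04 on the log2 scale (SE 0.0910, adjusted p = 6.44e-07).

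The chaperones that assemble the 20S core rose in all 4 cases, with a median log2 fold change of 0.97. Psmg2, which works as a pair with Psmg1 on the alpha ring, had 38.1, 38.5, 35.7 and 39.7 CPM in unstimulated and 86.5, 81.3, 76.0 and 74.3 CPM in stimulated control samples. Psmg3, which works with Psmg4, had 10.8, 9.78, 8.56 and 9.51 CPM and then 23.1, 21.7, 19.8 and 17.01 CPM. Neither gene's groups overlapped, and the fold changes were 2.08 for Psmg2 (log2 1.05, SE 0.0759, adjusted p = 1.39e-07) and 2.10 for Psmg3 (log2 1.07, SE 0.119, adjusted p = 4.96e-06). By contrast, of the 3 chaperones of 19S assembly only Psmd9 passed the test (log2 0.31, adjusted p = 0.00455), and Psmd5 and Psmd10 had log2 fold changes of 0.09 and -0.09.

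The catalytic genes divided by kind. Psmb5, the chymotrypsin-like subunit, had 103, 91.4, 94.6 and 87.8 CPM in unstimulated and 192, 154, 153 and 136 CPM in stimulated control samples. Psmb6, the caspase-like subunit, had 108, 109, 114 and 114 CPM and then 225, 190.1, 179.8 and 165 CPM. Psmb7, the trypsin-like subunit, had 73.3, 72.0, 72.8 and 74.7 CPM and then 137, 114, 101 and 97.5 CPM. All 3 rose without overlap of the groups. The fold changes were 1.67 for Psmb5 (log2 0.74, SE 0.106, adjusted p = 4.57e-05), 1.69 for Psmb6 (log2 0.76, SE 0.0973, adjusted p = 1.74e-05) and 1.52 for Psmb7 (log2 0.61, SE 0.105, adjusted p = 0.000222).

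Their immunoproteasome counterparts did not rise. Psmb8, which replaces Psmb5, had 357, 353, 349 and 358 CPM in unstimulated and 324, 299, 320.2 and 323 CPM in stimulated control samples. Psmb9, which replaces Psmb6, had 251, 254, 267 and 265 CPM and then 234, 228, 237 and 221 CPM. For both genes every stimulated sample lay below every unstimulated one. The log2 fold changes were -0.18 for Psmb8 (SE 0.0627, adjusted p = 0.0241) and -0.19 for Psmb9 (SE 0.0655, adjusted p = 0.0225), and both calls were lost with RLE factors in place of TMM scaling, with adjusted p of 0.0762 and 0.0627. Leaving out stimulated control replicate 2 also ended the call of Psmb8 (adjusted p = 0.0713), and leaving out stimulated control replicate 4 that of Psmb9 (adjusted p = 0.0640). Psmb10, which replaces Psmb7, had 146, 141, 139.8 and 126 CPM and then 154, 136, 137 and 112 CPM, with overlapping groups and a log2 fold change of -0.04 (SE 0.0986, adjusted p = 0.724).

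**Figure D2:**
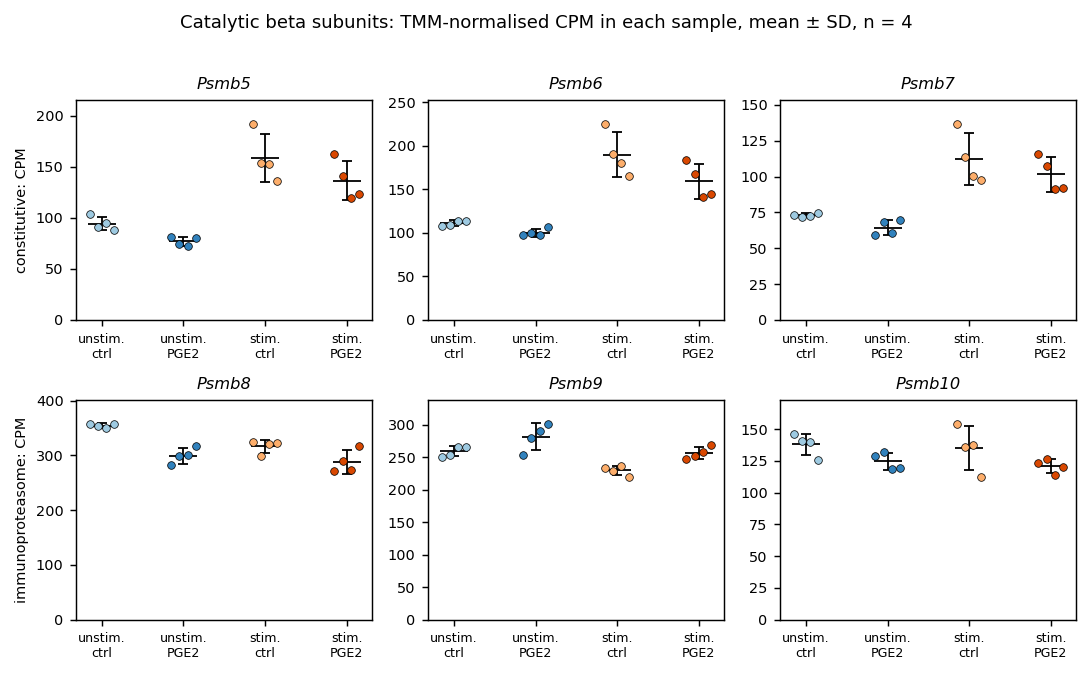
CPM of the constitutive catalytic genes Psmb5, Psmb6 and Psmb7 (top) and of their immunoproteasome counterparts Psmb8, Psmb9 and Psmb10 (bottom) in every sample of the 4 groups, with mean ± SD (n = 4) and axes from 0. The stimulated samples of the top row lie above the unstimulated ones, whereas the bottom row shows no such rise.

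Because the partners of each pair moved apart, their per-length ratio shifted; the ratios are given without a test. The log2 ratio of FPKM of Psmb8 to Psmb5 was 0.18, 0.34, 0.28 and 0.42 in the unstimulated control samples and -0.85, -0.65, -0.54 and -0.36 in the stimulated control samples. That of Psmb9 to Psmb6 was 0.25, 0.26, 0.26 and 0.25 and then -0.92, -0.70, -0.57 and -0.55. In both pairs the immunoproteasome transcript was the more abundant per length before stimulation in every sample and the less abundant after it. A limit is that Psmb5 shares most of its sequence with Gm3375. In CPM, which is not scaled to length, Psmb8 and Psmb9 stayed above Psmb5 and Psmb6 in every stimulated control sample. The order after stimulation thus rests on the gene lengths used. These were 2736 bases for Psmb8 against 899 for Psmb5, and 3659 for Psmb9 against 1872 for Psmb6. Psmb10 kept a higher level than Psmb7 throughout, with a mean log2 ratio of 1.92 ± 0.11 (SD, n = 4) before and 1.28 ± 0.12 after stimulation. Summed over the 3 genes of each kind, constitutive catalytic transcripts went from 177 ± 6.50 to 296 ± 49.2 FPKM and immunoproteasome transcripts from 268 ± 3.77 to 245 ± 15.96 FPKM.

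**Figure D3:**
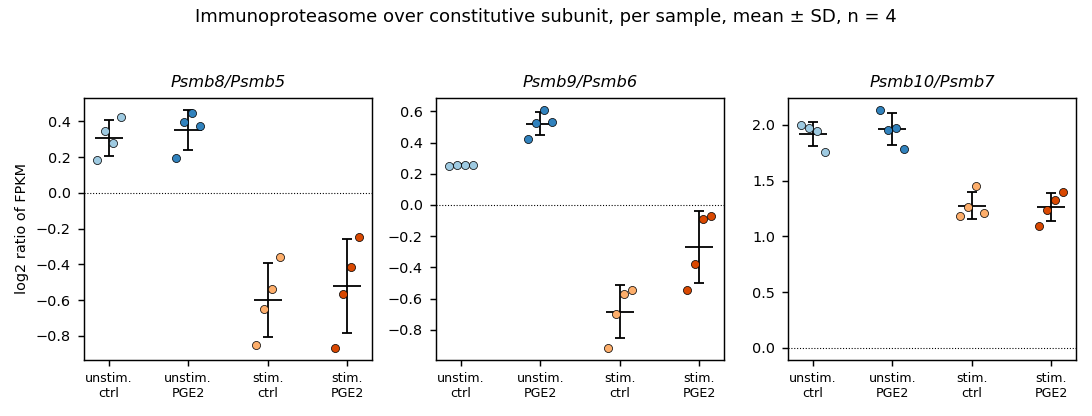
Log2 ratio of FPKM between each immunoproteasome catalytic gene and its constitutive counterpart (vertical axis) in every sample of the 4 groups, with mean ± SD (n = 4). The ratios Psmb8 to Psmb5 and Psmb9 to Psmb6 lie above 0 in unstimulated samples and below 0 in stimulated samples, and Psmb10 to Psmb7 stays above 1.

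The activators did not move as a block with the immunoproteasome core. Psme1 had 348, 363, 337 and 346 CPM in unstimulated and 485, 449, 441 and 409.8 CPM in stimulated control samples. Psme2, its partner in the PA28 ring, had 170.0, 184, 172 and 191 CPM and then 379, 306, 298 and 288 CPM. Both rose without overlap, by 0.34 (SE 0.0757, adjusted p = 0.00139) and 0.81 (SE 0.0972, adjusted p = 9.73e-06) on the log2 scale. Psme4, the PA200 activator, had 93.4, 90.7, 83.1 and 90.3 CPM and then 82.4, 77.6, 73.3 and 82.5 CPM. Its stimulated samples were the lower ones (log2 fold change -0.19, SE 0.0672, adjusted p = 0.0234), but the call was lost with RLE factors (adjusted p = 0.0741), with DESeq2 (adjusted p = 0.0703), and without replicate 1 or 2 of the unstimulated or replicate 2 or 3 of the stimulated control group (adjusted p between 0.0511 and 0.0773). Psmf1, the inhibitor PI31, had 56.3, 55.1, 51.4 and 53.6 CPM and then 61.0, 55.5, 55.3 and 55.0 CPM, which overlapped (log2 fold change 0.06, adjusted p = 0.497).

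With PGE2 present throughout, stimulation gave a like picture in its own comparison. Of 48 members 36 rose, where 32.5% of all 14507 genes did, and Psme4 alone fell, where 31.7% did; the median log2 fold change was 0.62 for the members and 0.002 for all genes. The groups did not overlap for 39 members upwards and 1 downwards, against 30.1% of all genes in either direction. Significant increases of at least 2-fold occurred in 6 members, against 12.7% of all genes. With upper quartile scaling the median of all genes shifted to -0.13 in both stimulation comparisons, and that of the members to 0.49 with PGE2 and 0.37 without it.

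The members with the largest increases in the presence of PGE2 were Psme3, Psmd7 and Psmg2. Psme3 had 124, 112, 94.1 and 113 CPM in unstimulated PGE2 samples and 486, 460.4, 345 and 299 CPM in stimulated PGE2 samples. Psmd7 had 76.0, 71.6, 66.1 and 77.6 CPM and then 250.2, 235, 189.8 and 174 CPM. Psmg2 had 23.8, 23.2, 22.0 and 24.1 CPM and then 77.6, 71.5, 62.0 and 55.5 CPM. None of these genes overlapped between groups, and the fold changes were 3.63 for Psme3 (SE 0.158 on the log2 scale, adjusted p = 3.77e-06), 2.95 for Psmd7 (SE 0.123, adjusted p = 2.62e-06) and 2.90 for Psmg2 (SE 0.112, adjusted p = 1.99e-06). Psmd12, Psmg1 and Psme2 were the other members past 2-fold, with log2 fold changes of 1.22, 1.07 and 1.06.

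Among the catalytic genes, Psmb5, Psmb6 and Psmb7 rose in the presence of PGE2 by 0.84, 0.68 and 0.67 on the log2 scale. None of the immunoproteasome catalytic genes passed the test, with log2 fold changes of -0.05 for Psmb8 (adjusted p = 0.604), -0.12 for Psmb9 (adjusted p = 0.167) and -0.03 for Psmb10 (adjusted p = 0.718). Psme4 went from 106, 99.6, 92.0 and 91.1 CPM to 78.8, 83.9, 83.4 and 89.1 CPM, which left every stimulated sample below every unstimulated one. Its log2 fold change was -0.20 (SE 0.0663, adjusted p = 0.022), and without unstimulated PGE2 replicate 2 or stimulated PGE2 replicate 1 it no longer passed.

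PGE2 in unstimulated cells was compared next, which shows the effect of PGE2 with IL-2 as the only other signal. Here the members fell: 28 of 48 were lower and 0 higher at an adjusted p below 0.05 (edgeR), where 15.5% of all 14505 genes were lower and 12.9% higher. At an unadjusted p below 0.05 there were 32 lower and 2 higher, and DESeq2 called 27 lower and 0 higher. Those counts stand without the share of all genes that passed the same criterion. The groups did not overlap for 32 members downwards, against 16.8% of all genes, and for 0 upwards, against 12.1%. The median log2 fold change was -0.24 for the members and -0.001 for all genes, and no member changed 2-fold. Summed over all members, the level was 2490.3 ± 73.9 FPKM (SD, n = 4) in the unstimulated control group and 2109 ± 64.9 FPKM in the unstimulated PGE2 group.

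By role, 6 of 7 alpha ring genes fell, and so did 8 of 11 non-ATPase subunits and 3 of 6 ATPases of the 19S particle. All 4 PA28 genes fell, as did 3 of 4 chaperones of 20S assembly, whereas none of the 3 chaperones of 19S assembly passed the test. The PA28 count includes Psme2b, which shares most of its sequence with Psme2, so the reads of these genes may not be separate. Of the structural beta genes 2 of 4 fell, Psmb2 by 0.31 and Psmb3 by 0.26 on the log2 scale. Each kind of catalytic gene had 1 of 3 members lower, Psmb5 and Psmb8.

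The largest decreases were in Psme3, Psmg2 and Psmg1. For Psme3 the unstimulated PGE2 samples with 94.1 to 124 CPM all lay below the control samples with 168 to 194 CPM, 1.61-fold lower (log2 -0.69, SE 0.0749, adjusted p = 6.34e-05). For Psmg2 the PGE2 samples had 22.0 to 24.1 CPM and the control samples 35.7 to 39.7 CPM (log2 -0.69, SE 0.0601, adjusted p = 1.69e-05). Psmg1 had 26.8, 24.5, 25.4 and 28.5 CPM without and 17.8, 15.9, 18.1 and 18.1 CPM with PGE2, again without overlap (log2 -0.57, SE 0.0770, adjusted p = 0.000275). Psmd7 also fell, by 0.55 on the log2 scale (SE 0.0634, adjusted p = 9.32e-05).

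Of the catalytic genes, Psmb5 had 80.9, 74.7, 72.4 and 80.3 CPM with PGE2, all below its control samples (log2 -0.27, SE 0.0606, adjusted p = 0.00644). Psmb8 had 281, 299, 300.1 and 317 CPM, also below all its control samples (log2 -0.22, SE 0.0591, adjusted p = 0.0161), although leaving out unstimulated control or unstimulated PGE2 replicate 2 ended this call. Psmb9 had 254, 280.5, 291 and 302 CPM, which overlapped its control samples and lay higher on average (log2 0.14, adjusted p = 0.159). Psmb6 with 97.0, 99.8, 97.7 and 107 CPM, Psmb7 with 59.0, 68.4, 60.6 and 69.7 CPM and Psmb10 with 129, 132, 119 and 119.8 CPM had log2 fold changes of -0.13, -0.16 and -0.12 that did not pass. The per-length log2 ratio of Psmb9 to Psmb6 was 0.42, 0.52, 0.61 and 0.53 with PGE2, above all 4 control values, and that of Psmb8 to Psmb5 was 0.19, 0.39, 0.45 and 0.38, which overlapped its control values.

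Of the activators, Psme1 had 281, 296, 291 and 309 CPM with PGE2 (log2 -0.22, SE 0.0578, adjusted p = 0.0141) and Psme2 had 123, 141, 136 and 152 CPM (log2 -0.36, SE 0.0770, adjusted p = 0.00508). Both lay below all their control samples, and the call of Psme1 was lost without replicate 2 of either group. Psmf1 had 50.3, 52.8, 51.0 and 54.0 CPM (log2 -0.03, adjusted p = 0.692). Psme4 was 1 of 4 members with a positive sign (log2 0.14, adjusted p = 0.0943).

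Same-numbered samples of the groups deviated together from their group means, and with the replicate number as a block 35 members were lower, against 24.2% of all genes in the same fit, and 2 higher, against 23.6%, in unstimulated cells. Among the calls gained were decreases of Psmb6 (adjusted p = 0.00833), Psmb7 (adjusted p = 0.00697), Psmb10 (adjusted p = 0.0144) and Psma5 (adjusted p = 0.000231). The members called higher were Psmb9 (log2 0.14, adjusted p = 0.00762) and Psme4 (log2 0.14, adjusted p = 0.00561).

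PGE2 in stimulated cells was the comparison in which the fit decided most. Without a block, 1 of 48 members was lower, against 3.80% of all 13922 genes, and 0 were higher, against 6.04%, at an adjusted p below 0.05 (edgeR). At an unadjusted p below 0.05 there were 13 lower and 1 higher, and DESeq2 called 4 lower and 1 higher. Those counts stand without the share of all genes that passed the same criterion. The sign was negative in 43 members and positive in 5, whereas 50.8% of all genes had a negative sign, and the median log2 fold change was -0.15 for the members and -0.01 for all genes. The groups did not overlap for 7 members downwards, against 8.32% of all genes, and for 1 upwards, Psmb9, against 9.58%.

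Psmg1 was the member called. It had 54.1, 46.4, 50.1 and 44.7 CPM in stimulated control samples and 41.0, 35.5, 36.2 and 32.9 CPM in stimulated PGE2 samples. The groups were apart by a log2 fold change of -0.42 (SE 0.0862, adjusted p = 0.0156). Without stimulated control replicate 1 the adjusted p (edgeR) was 0.0574, and without stimulated PGE2 replicate 3 it was 0.0538, so that no member passed in either case.

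The spread within groups followed the replicate numbers. Stimulated control replicate 1 had the highest CPM of its group in 44 of the 48 members and stimulated PGE2 replicate 1 in 33 of 48. The former library also had the highest total count, 42950763, and the lowest TMM scaling factor of all samples, 0.880; their part in the result was not tested. Without it the median log2 fold change of the members was -0.08.

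With the replicate number as a block, 32 members were lower and 1 was higher, against 20.7% and 19.1% of all genes, with a median of -0.15 for the members and -0.01 for all genes. Lower values in all 4 same-numbered pairs were found in 39 members, against 29.0% of all genes, and higher values in all 4 pairs in 2 members, Psmb9 and Psmd10, against 25.3%. The number of calls depended on the pairs used: it was 19 without number 3, with 18 lower and 1 higher, and between 22 and 34 without any of the other numbers. These counts are given without the share of all genes called in the same fits.

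In the blocked fit the decreases again ran through most roles. All 7 alpha ring genes, all 3 constitutive catalytic genes and all 4 chaperones of 20S assembly fell, together with 8 of 11 non-ATPase subunits, 4 of 6 ATPases, 3 of 4 PA28 genes and 2 of 4 structural beta genes. The PA28 count again holds Psme2b beside Psme2, with the same limit. Among the immunoproteasome catalytic genes Psmb9 rose and none was called lower. Psmb8 was lower in all 4 pairs and Psmb10 in 3 of 4, with log2 fold changes of -0.13 and -0.14. The constitutive gene Psmb7, which was called, had -0.13. The 3 chaperones of 19S assembly, Psme4 and Psmf1 did not pass, and Psmc3ip, the member that is no subunit, fell.

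Psme3 had the largest decrease in pairs. It had 486, 460.4, 345 and 299 CPM with PGE2, each below the stimulated control sample of the same number with 623, 574, 494 and 462 CPM, although the groups overlapped. Its log2 fold change was -0.45 with the block (adjusted p = 0.000205) and -0.43 without it (adjusted p = 0.112). Psmg1 had -0.42 (adjusted p = 8.68e-05), Psmg3 -0.31 (adjusted p = 0.00348), Psmg2 -0.25 (adjusted p = 0.0031) and Psmd7 -0.24 (adjusted p = 0.00412) in the blocked fit. Without the block Psmg3 had an adjusted p of 0.178, Psmg2 of 0.154 and Psmd7 of 0.257.

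Psmb5 with 162, 141, 119.6 and 124 CPM, Psmb6 with 184, 167, 141 and 144 CPM and Psmb7 with 116, 107, 91.2 and 91.9 CPM each lay below the stimulated control sample of the same number in all 4 pairs. Their log2 fold changes were -0.21 (adjusted p = 0.00549), -0.25 (adjusted p = 0.00141) and -0.13 (adjusted p = 0.0257) with the block, and none passed without it. Psmb9 went the other way, with 247, 252, 259 and 269 CPM with PGE2 against 234, 228, 237 and 221 CPM without, and no overlap of the groups. Its log2 fold change was 0.16 with the block (SE 0.0450, adjusted p = 0.0141) and 0.17 without it (SE 0.0589, adjusted p = 0.105). Psmb8 with 271, 289, 274 and 317 CPM had -0.13 (adjusted p = 0.0567 with the block), and Psmb10 with 124, 126, 114 and 120.4 CPM had -0.14 (adjusted p = 0.0858 with the block).

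The per-length log2 ratio of Psmb9 to Psmb6 was -0.54, -0.38, -0.09 and -0.07 in the stimulated PGE2 samples, above the 4 stimulated control values. The margin was narrow, with -0.543 as the lowest PGE2 and -0.547 as the highest control value. For Psmb8 to Psmb5 the values were -0.87, -0.57, -0.41 and -0.25, and for Psmb10 to Psmb7 they were 1.10, 1.24, 1.33 and 1.39, both overlapping the stimulated control samples. Psme1 had 414, 415, 414 and 392 CPM and Psme2 318, 296, 258 and 265 CPM, with blocked adjusted p of 0.0509 and 0.0235. Psmf1 had 56.3, 59.3, 56.3 and 55.9 CPM, which overlapped the stimulated control samples.

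**Figure D4:**
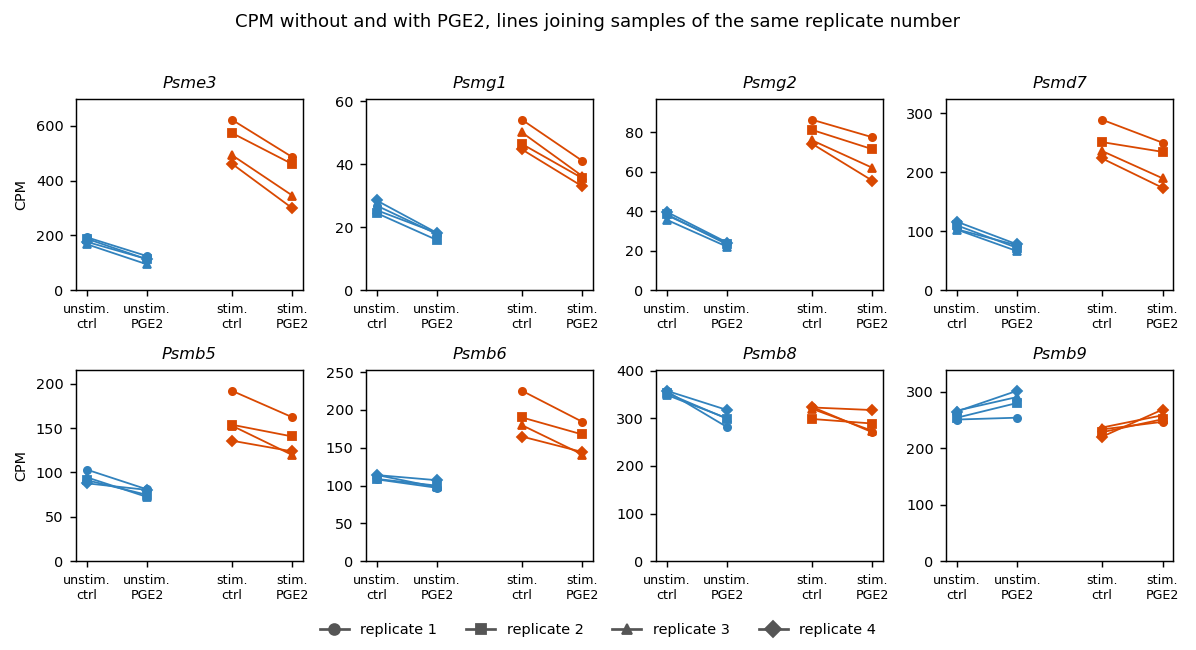
CPM of 8 members in every sample without and with PGE2, in unstimulated and stimulated cells, with lines joining samples of the same replicate number. In stimulated cells the lines of Psme3, Psmg1, Psmg2, Psmd7, Psmb5, Psmb6 and Psmb8 slope down in all 4 pairs and those of Psmb9 slope up.

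Whether the effect of PGE2 differed between stimulated and unstimulated cells was tested by the interaction over all 16 samples. Without a block no member was called, against 0.517% of all 15096 genes with a positive and 0.232% with a negative interaction. An unadjusted p below 0.05 was found for 4 members and DESeq2 called 0, both without the share of all genes. The largest value was that of Psmg2, 0.45 on the log2 scale (SE 0.125, adjusted p = 0.132), followed by Psmd7 with 0.33 (adjusted p = 0.492). The median was 0.08 for the members and 0.05 for all genes. With the replicate number as a block 1 member was called, Psmg2 (log2 0.45, SE 0.102, adjusted p = 0.0293, edgeR). Its log2 fold change with PGE2 was -0.69 in unstimulated and -0.25 in stimulated cells. In that fit 1.79% of all genes had a positive and 0.914% a negative interaction. The fit includes groups whose same-numbered samples deviated together only weakly, with correlations down to 0.04 between unstimulated and stimulated PGE2 samples. Psmg2 was also the member called without the block when stimulated PGE2 replicate 4 was left out (log2 0.52, adjusted p = 0.0204). The sums over all members were 3590.1 ± 404 FPKM (SD, n = 4) in stimulated control and 3170.2 ± 299 FPKM in stimulated PGE2 cells.

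Other genes of the pathway were followed from 2 lists. The first held partners and regulators of the proteasome (ubiquitin genes, shuttle factors, deubiquitinases, Pomp and Nfe2l1 among them), of which 30 were tested. On stimulation without PGE2, 18 rose and 5 fell, where 31.7% of all genes were higher and 34.8% lower. The largest increases were in the ubiquitin receptor Ubqln4 (log2 1.30) and the activating enzyme Uba6 (1.01). The largest decreases were in Ngly1 (-1.29), which deglycosylates Nfe2l1, and the stress protein gene Zfand2a (-0.42). Nfe2l1 itself rose by 1.01. With PGE2 present, 20 rose and 3 fell, where 32.5% of all genes were higher and 31.7% lower. The increases were led by Ubqln4 (1.47) and the deubiquitinase gene Usp14 (1.19) and the decreases by Ngly1 (-1.12) and Zfand2a (-0.74).

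With PGE2 in unstimulated cells, 6 of these 30 genes fell and 2 rose, where 15.5% of all genes were lower and 12.9% higher. With the block 17 were lower and 4 higher, against 24.2% and 23.6% of all genes. Among the calls without the block, the deubiquitinase genes Uchl5 and Usp14, whose products bind the 19S particle, had the largest decreases (log2 -0.39 and -0.35). Zfand2a (0.34) and Nploc4 (0.18) were the increases. With the block the ubiquitin gene Rps27a fell most (log2 -0.43, adjusted p = 0.0139, edgeR), and Ubb (0.18) and Ddi2 (0.15) were also higher. Pomp, the chaperone that matures the core, fell by 0.25. In stimulated cells 0 of 30 were called without the block, where 3.80% of all genes were lower and 6.04% higher. At an unadjusted p below 0.05 there were 3 lower and 2 higher, and DESeq2 called 1 in each direction, both without the share of all genes. With the block 12 were lower and 3 higher, against 20.7% and 19.1% of all genes. The decreases in the blocked fit included Nfe2l1 (-0.26) and the ubiquitin receptor Adrm1 (-0.24).

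The second list held 14 genes of MHC class I antigen processing, the pathway that the immunoproteasome serves. With PGE2 in stimulated cells 2 rose and 0 fell, against 6.04% and 3.80% of all genes. Those that rose were Tap1, the neighbour of Psmb9, with a log2 fold change of 0.39 (adjusted p = 0.0065, edgeR) and Tapbpl with 0.36 (adjusted p = 0.022). By an unadjusted p below 0.05, 5 were higher and 2 lower, and DESeq2 called 4 higher and 2 lower, both without the share of all genes. The block gave 6 higher and 3 lower, against 19.1% and 20.7% of all genes. In unstimulated cells 5 rose and 3 fell, against 12.9% and 15.5% of all genes. The increases were led by Tap1 (0.35) and the transcription factor gene Irf1 (0.30). The decreases were led by the chaperone gene Calr (-0.42) and the peptide-trimming Erap1 (-0.35). With the block 8 were higher and 4 lower in unstimulated cells, against 23.6% and 24.2% of all genes. On stimulation Tap1 (-0.39) and Tap2 (-0.25) fell without PGE2, and Erap1 (0.57) and the chaperone gene Canx (0.42) rose. In all, 4 were higher and 3 lower, against 31.7% and 34.8% of all genes. With PGE2 present, 5 rose and 2 fell, against 32.5% and 31.7% of all genes. Erap1 (0.83) and Calr (0.59) were at 1 end and Tap1 (-0.32) and Tap2 (-0.26) at the other.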

How the data were processed

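RNA-seq of poly(A) RNA was measured in 16 samples. Counts per gene were deposited by the authors as a table made with HISAT2 (version 2.0.5) and featureCounts (version 1.5.0-p3) on GRCm38, per the submitters' processing notes, and a second deposited table holds FPKM values that the authors computed from gene length and library total. Each FPKM equalled the count over length and total times 1 factor per sample (0.878 to 1.11). How reads with several positions and their strand were treated was not given in the sources used here. The depth of 22678254 to 42950763 counts per sample sets the counting precision.

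Groups came from the labels. The members and gene lists were chosen with earlier results of these data known. Genes were filtered with filterByExpr (minimum count 10), scaled by TMM and tested with the two-sided quasi-likelihood test of edgeR (version 4.0.16, R 4.3.3) on the 8 samples of each comparison, and on all 16 for the interaction. P-values were adjusted by the Benjamini-Hochberg method over all genes tested, and genes with an adjusted p below 0.05 were called. SE values are the log2 fold change divided by the square root of the F statistic. FPKM was used for levels between genes and for ratios. The procedure was tested on simulated data. Samples of a group were compared in CPM for overlap.

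Replicate numbers come from the labels, which do not say what samples of 1 number share. The correlation of deviations from group means between same-numbered samples was 0.19 to 0.42 for PGE2 in stimulated cells, 0.14 to 0.44 for PGE2 in unstimulated cells and 0.11 to 0.36 for stimulation without PGE2, so these were also fitted with the number as a block. For stimulation with PGE2 it was 0.04 to 0.28 and did not exceed 0.1 in every pair. The interaction was also fitted with the block as an alternative, although not every same-numbered pair in it exceeded 0.1.

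Values in every sample are given for the catalytic genes, the activators and the inhibitor, and for up to 3 members per comparison and direction with the largest log2 fold change among those called whose groups did not overlap; of the lists, the 2 largest called changes in each direction are named. Members past 2-fold, members named for a role that did not pass, and Psmg3, Nfe2l1, Pomp, Adrm1 and others named beside these were chosen after their values were seen. Alternatives were DESeq2 (version 1.42.0), RLE and upper-quartile factors, other filters, limma (version 3.58.1) on log2(FPKM + 1) or log2(FPKM + 0.1), 1 fit of all 16 samples, a 2-fold threshold and leaving out each sample. Shared sequence was counted as 31-base stretches of the annotated transcripts, and promoter windows were RefSeq's.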

Additional observations from a re-analysis of the deposited data

Results flagged for a closer look

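The 15 members with values in every sample were checked in each of the 4 groups for a sample far from the other 3, and 5 of 60 checks found one, where chance gives about 1 in 20. In the stimulated control group, Psmb8 had 298.7 CPM in replicate 2 against 320.2 to 324.0 CPM in the others, and Psmf1 had 61.0 CPM in replicate 1 against 55.0 to 55.5 CPM. In the stimulated PGE2 group, Psme1 had 392 CPM in replicate 4 against 413.6 to 414.7 CPM, and Psmf1 had 59.3 CPM in replicate 2 against 55.9 to 56.3 CPM. In the unstimulated PGE2 group, Psmg1 had 15.9 CPM in replicate 2 against 17.8 to 18.1 CPM.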

How the results depend on the processing

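Of PGE2 in stimulated cells, where 1 member was called, the count was 5 with DESeq2, 6 in 1 fit of all 16 samples, 33 with the replicate block, 0 with limma on unfiltered log2(FPKM + 1) and 0 at a 2-fold threshold; leaving out single samples gave 0 to 1, with 0 without stimulated control replicate 1 or stimulated PGE2 replicate 3. The 33 calls of the blocked fit ranged from 19 to 34 when a replicate number was left out, an alternative chosen after seeing the data. At a 2-fold threshold 0 members were called for PGE2 in unstimulated cells (28 without it), 5 for stimulation without PGE2 (40) and 6 for stimulation with PGE2 (37). Leaving out single samples gave 20 to 29, 38 to 41 and 36 to 39 calls in these comparisons. With the block they had 37, 41 and 37 calls; for stimulation with PGE2 the samples share only a number by the check used. The interaction, with 0 calls, had 1 with the replicate block and 0 to 1 when single samples were left out, 1 without stimulated PGE2 replicate 4 (Psmg2 in both cases). The cause was not tested. The numbers of calls above are of members only, and the share of all genes called in the same fits is not set beside them here. Whether they changed more than the calls over all genes was therefore not compared. Psmb5 in unstimulated cells with PGE2 no longer passed in 1 fit of all 16 samples (adjusted p = 0.0531, edgeR), nor did Psmb8 on stimulation without the filter on low counts (adjusted p = 0.0569), nor Psmg1 in stimulated cells with PGE2 under unfiltered limma (adjusted p = 0.0682). None of the 33 called values of named members changed sign under the alternatives run. For stimulation without PGE2 the fit with the replicate block kept the decreases of Psmb8, Psmb9 and Psme4. Their adjusted p in it were 0.00942, 0.0130 and 0.00597 (edgeR). Depth limits the statements on Psma8 and Psmb11, which had at most 4 counts per sample.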
